A study of Mus musculus with 8 samples.

Results

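Anti-Müllerian hormone and its own receptor are encoded in the mouse by *Amh* and *Amhr2*, and both were found, each on 1 row, among the 45583 gene symbols of the count table (2 of 45583). They were chosen by name and not by their values. RNA was sequenced from the whole ovary of 3-week-old females on a C57/Bl6 background, with 1 ovary per animal, in 4 WT mice and 4 GOAT KO mice. GOAT (ghrelin-O-acyltransferase, the product of *Mboat4*) is the enzyme that attaches the acyl group to ghrelin, and the GOAT KO mice carry a deletion of it in the whole body and throughout life. Both groups came from crosses between heterozygous parents, so WT and GOAT KO mice were littermates, and no group received a treatment. The comparison asks whether the ovary that develops without acyl ghrelin holds different amounts of the transcripts of the hormone and of its receptor.

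AMH is a secreted dimer of the TGF-β family that granulosa cells, the somatic cells around the oocyte, make from the time a follicle begins to grow until it becomes sensitive to FSH. It binds AMHR2, a type II serine/threonine kinase receptor dedicated to it, and this receptor phosphorylates type I receptors shared with the bone morphogenetic proteins, which in turn activate SMAD1, SMAD5 and SMAD9. In the postnatal ovary AMH restrains the recruitment of primordial follicles and lowers the response of growing follicles to FSH, and in the male fetus it removes the Müllerian ducts.

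The gene counts summed to between 16147216 and 19481798 per library. *Mboat4* had more reads in the libraries labelled GOAT KO, with 1, 1, 1 and 3 counts in the WT libraries and 5, 7, 7 and 8 in the GOAT KO libraries. The sources used here do not give the deleted part of the gene, so these few reads do not check the deletion, and the groups are named below by their labels. Granulosa markers placed the tissue as ovary, with *Inha*, the inhibin alpha subunit, at 3435 CPM (gene counts scaled to the library's total) in WT and 3651 CPM in GOAT KO, while the summed level of 5 oviduct markers reached at most 12.7 CPM. The summed level of 5 adipose markers was 880 CPM in GOAT KO 1139 and at most 47.3 CPM in every other library. WT 1118 stood apart in its splice junctions, being the highest or the lowest of the 8 libraries at 69.8% of 7780 introns in 976 genes, against 13.4% to 32.3% for each other library. The study left out 1 library per group as an outlier without naming it, and the libraries farthest from their own group over the 500 genes that differed most in each pair, WT 1120 and GOAT KO 1139, were left out as an alternative (6 libraries).

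*Amh* lies on chromosome 10 (GRCm38, chr10:80805243-80807648, plus strand), has 5 exons with 1670 bases of exon and begins 318 bases beyond the end of *Sf3a2*. The libraries hold a second splice form of this gene, which makes the join of exons 3 and 4 worth seeing. The last 30 bases of exon 3 are in lower case and the first 30 of exon 4 in capitals, from the GENCODE M21 transcript.
Amh exon 3 and exon 4: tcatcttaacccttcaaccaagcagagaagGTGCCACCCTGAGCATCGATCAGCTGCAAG

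*Amh* was read 5694, 7618, 8258 and 6298 times in WT 1118, 1119, 1120 and 1121. In GOAT KO 1139, 1140, 1141 and 1146 it was read 6610, 5728, 6247 and 5091 times. Scaled by library size with the TMM method, these were 353, 423, 453 and 343 CPM for WT, then 395, 350, 320 and 296 CPM for GOAT KO. The groups overlapped, with WT 1119 and WT 1120 above every GOAT KO library and GOAT KO 1141 and GOAT KO 1146 below every WT library. The mean was 393 ± 53.6 CPM in WT against 340 ± 43.0 CPM in GOAT KO (SD, n = 4 each). The log2 fold change was -0.21 ± 0.11 (SE), which did not pass the test (edgeR quasi-likelihood test, adjusted p = 0.983, with an unadjusted p of 0.0845). An exact two-sided permutation test of the CPM gave p = 0.171. In bulk tissue, fewer cells of a type and less RNA per cell cannot be told apart.

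*Amh* was among the most abundant transcripts of the ovary. Per kilobase of exon its level was 235 ± 32.1 RPKM in WT and 204 ± 25.7 RPKM in GOAT KO, and it ranked between 59 and 110 of 15794 genes over the 8 libraries.

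*Amhr2* lies on chromosome 15 (GRCm38, chr15:102445367-102454633, plus strand), and its main transcript has 11 exons. It was read 3098, 3859, 4606 and 3473 times in the WT libraries in the same order and 3710, 4022, 5086 and 3526 times in the GOAT KO libraries. Scaled, these were 192, 214, 253 and 189 CPM for WT, then 222, 246, 260 and 205 CPM for GOAT KO. GOAT KO 1141 held the highest value and WT 1118 and WT 1121 the lowest, and WT 1120 lay among the GOAT KO libraries. The mean was 212 ± 29.4 CPM in WT against 233 ± 24.6 CPM in GOAT KO (SD, n = 4 each), with a log2 fold change of 0.14 ± 0.10 (SE) that did not pass the test (edgeR quasi-likelihood test, adjusted p = 0.983, with an unadjusted p of 0.210). The exact two-sided permutation test of the CPM gave p = 0.286. Per kilobase of exon the receptor stood below its ligand, at 106 ± 14.6 RPKM in WT and 116 ± 12.3 RPKM in GOAT KO, and ranked between 194 and 314 of 15794 genes.

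**Figure D1:**
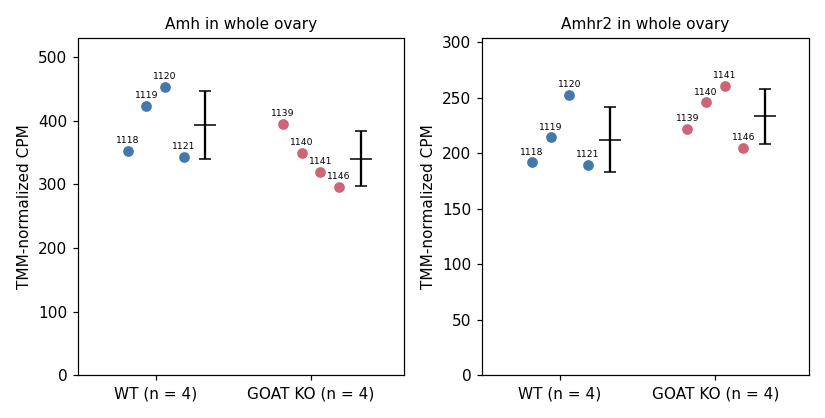
TMM-normalized CPM (y axis, from 0) of Amh (left) and Amhr2 (right) in the 4 WT and 4 GOAT KO libraries, each point 1 library labelled with its animal number, the bar showing the mean ± SD. Amh averaged 393 CPM in WT against 340 CPM in GOAT KO, Amhr2 212 and 233 CPM, and the groups overlapped for both genes.

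Neither gene was called by the rule of the study, which asks for a log2 fold change beyond 0.5 in either direction and for an unadjusted p under 0.05. By it 1.67% of the 16601 genes tested were called, 4.62% had such a p at any size of change, and 4 genes (0.0241%) passed an adjusted p under 0.05. With 6 libraries the log2 fold change was -0.21 ± 0.09 for *Amh* (adjusted p = 0.515) and 0.26 ± 0.09 for *Amhr2* (adjusted p = 0.447, edgeR quasi-likelihood test), both still inside 0.5. Both had an unadjusted p under 0.05 in that fit, as did 9.46% of its 16641 genes, and 2.39% were called. The unadjusted p of *Amh* also went under 0.05 without WT 1121 (to 0.0372) or without GOAT KO 1139 (to 0.0210), and that of *Amhr2* without WT 1120 (to 0.0219). The direction of both genes held in all 15 alternatives tried.

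The number of *Amh* reads for each *Amhr2* read does not depend on library size and set the groups apart more clearly than either gene. This ratio was 1.84, 1.97, 1.79 and 1.81 in WT 1118, 1119, 1120 and 1121. In GOAT KO 1139, 1140, 1141 and 1146 it was 1.78, 1.42, 1.23 and 1.44. All 4 GOAT KO libraries lay below all 4 WT libraries, 3 of them well below, whereas GOAT KO 1139 stood beside WT 1120. For these neighbours the 95% counting intervals (from the logarithm of the counts) overlapped, at 1.71 to 1.85 for GOAT KO 1139 and 1.73 to 1.86 for WT 1120. The mean ratio was 1.85 ± 0.0818 in WT and 1.47 ± 0.230 in GOAT KO (SD, n = 4 each). On the log2 scale it was lower in GOAT KO by a difference of -0.35 ± 0.11 (SE), which corresponds to 78.6% of the WT ratio.

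The exact two-sided permutation test of the log2 ratio gave p = 0.0286, the smallest that 4 libraries against 4 can give. Together with the tests of the spliced reads described next, 3 such comparisons were planned, and the adjusted p of the ratio over the 3 exact tests was 0.0857, which does not pass. The 6 libraries, which leave out the nearest neighbours of the groups, gave a difference of -0.46, and 3 against 3 cannot go below the exact p of 0.1 that was found. *Amh* is richer in G and C (65.4% of its longest transcript) than *Amhr2* (58.8%), and after a correction of each library for the GC content of its genes the difference was -0.31, with an exact p of 0.0571 since GOAT KO 1139 (0.82) then lay above WT 1120 (0.79). GOAT KO 1139 is also the library with the adipose signal. Without it the difference was -0.44, and without GOAT KO 1141, the lowest, it was -0.27.

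**Figure D2:**
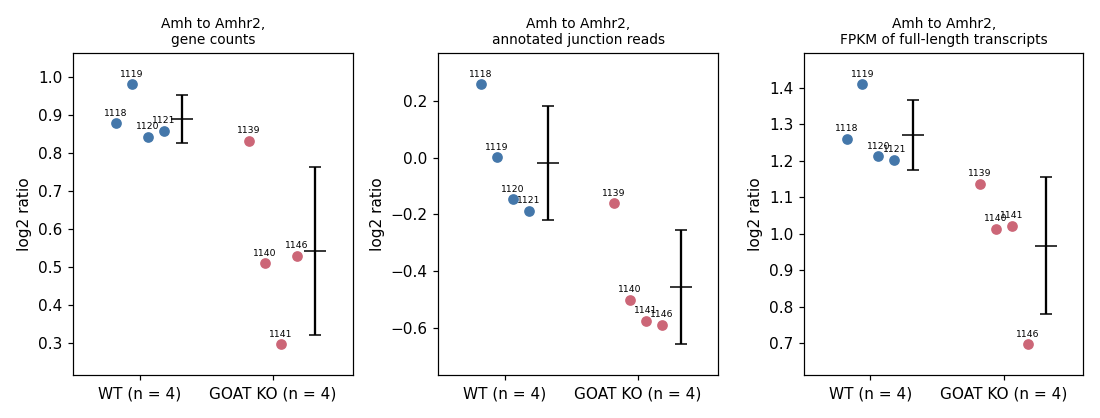
The log2 ratio of Amh to Amhr2 (y axis) in each library from gene counts (left), reads across annotated splice junctions (middle) and the FPKM of the full-length StringTie transcripts (right), with the mean ± SD of each group beside its 4 points. The 4 GOAT KO libraries lie below all WT libraries for gene counts and FPKM, and GOAT KO 1139 overlaps WT for junction reads.

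Reads that cross a splice junction come from spliced RNA and are independent of how reads inside exons were assigned. Over the annotated junctions of *Amh* scaled to the junction reads of the library as CPM are to its counts (junction CPM), they came to 416, 404, 432 and 312 in the WT libraries and to 361, 328, 303 and 257 in the GOAT KO libraries. The mean was 391 ± 53.8 in WT and 312 ± 43.7 in GOAT KO (SD, n = 4 each), and WT 1121 lay among the GOAT KO libraries (exact two-sided permutation test, p = 0.0857). Those of *Amhr2* came to 348, 403, 478 and 355 junction CPM for WT, then 403, 464, 452 and 386 for GOAT KO, with means of 396 ± 59.7 and 426 ± 37.5 (exact permutation p = 0.400). Neither gene passed the exact test by this measure.

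The log2 ratio of the spliced reads was 0.26, 0.00, -0.15 and -0.19 for WT, then -0.16, -0.50, -0.57 and -0.59 for GOAT KO, so that GOAT KO 1139 alone overlapped the WT group. The mean difference was -0.44 ± 0.14 (SE, exact permutation p = 0.0571). StringTie, with which the authors assembled transcripts, gave for the full-length *Amh* transcript an FPKM of 146, 181, 187 and 137 for WT, then 156, 147, 127 and 115 for GOAT KO. For the full-length *Amhr2* transcript it gave 61.0, 68.2, 80.7 and 59.4 for WT, then 70.8, 72.7, 62.5 and 71.1 for GOAT KO. The log2 ratio of these values again fell into separate groups, with means of 1.27 ± 0.10 in WT and 0.97 ± 0.19 in GOAT KO (SD, n = 4 each, exact permutation p = 0.0286). These measures come from the same reads as the gene counts and are not independent evidence.

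Across the 8 libraries no correlation of the hormone with its receptor passed the test. Pearson's r between their log2 CPM was 0.23 (exact permutation p = 0.562) and Spearman's rho was 0.19 (p = 0.665, exact permutation). This was the 1 relation across libraries that was tested. Without WT 1119 and WT 1120, the libraries farthest from the median *Amh*, r was -0.03. With each group's mean subtracted r was 0.60 (exact permutation p = 0.116) and rho was 0.67 (exact permutation p = 0.0831), so the libraries of a group tended to be high or low in both genes without passing the test.

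**Figure D3:**
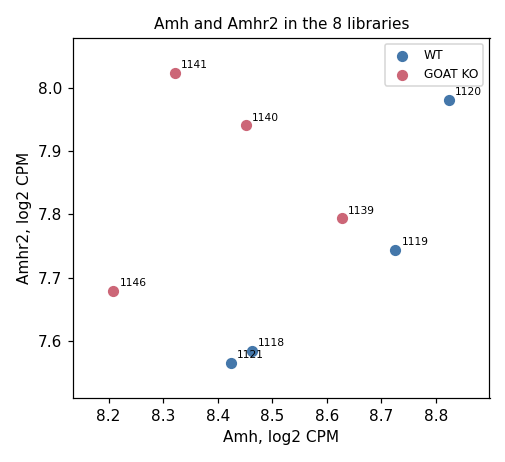
Amhr2 (y axis) against Amh (x axis) as log2 CPM in the 8 libraries, labelled with the animal number. The 4 GOAT KO libraries lie above or to the left of the WT libraries, and Pearson's r over all 8 was 0.23.

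Splicing of both genes followed the annotation almost throughout. For *Amh*, 7981 junction reads of the 8 libraries fell on its 4 introns, which was 99.0% of the reads spliced within the gene. Most of the rest, 69 reads, joined exon 3 to an acceptor 24 bases before the annotated start of exon 4 shown above, leaving out chr10:80806453-80806515 in place of an intron that ends at 80806539. This form was found in every library. It made up 3.94% (exact 95% interval 2.95 to 5.15%) of the 1295 reads on either acceptor in 7 libraries, where it ranged from 1.94 to 5.26%, and 15.5% (exact 95% interval 9.46 to 23.4%) of 116 reads in WT 1118. These intervals cover counting error only. The groups did not differ beyond their spread, at 7.34 ± 5.50% in WT and 3.39 ± 1.05% in GOAT KO (SD, n = 4 each, exact permutation p = 0.0857).

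The shares of the *Amh* junction reads at introns 2 and 3 did not overlap between the groups, but neither passed after adjustment. Intron 2 took 48.5, 39.9, 39.4 and 42.9% in the WT libraries and 34.2, 36.7, 35.5 and 35.7% in the GOAT KO libraries, all below WT. Intron 3 took 9.10, 15.83, 16.40 and 15.98% for WT, then 20.10, 17.45, 20.85 and 21.02% for GOAT KO, all above WT. Each gave an exact permutation p of 0.0286 and an adjusted p of 0.200 over the 14 introns of both genes, which does not pass. Of these 14 introns 2 did not overlap between groups, both in *Amh*, where a smaller share of 1 intron raises the others. Over the 7780 introns of well-covered genes 6.83% did not overlap. WT 1118 was the most extreme library at each of the 2.

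**Figure D4:**
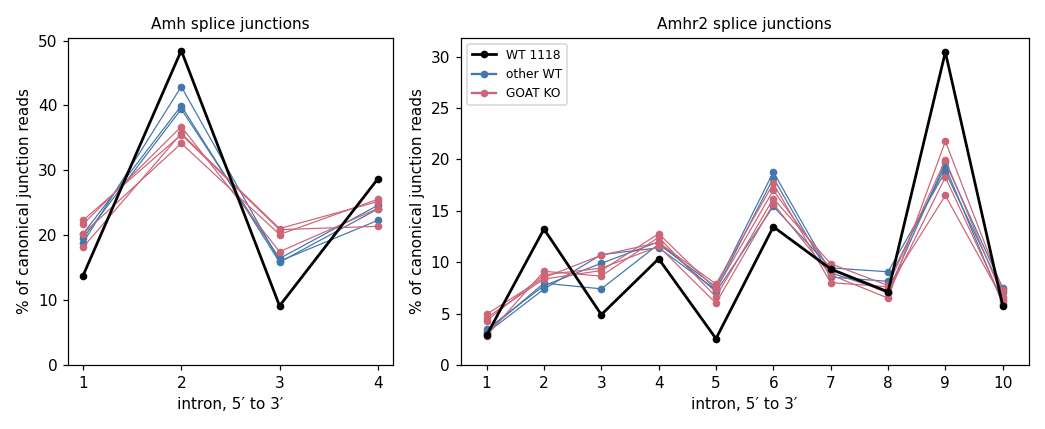
Share of the reads on annotated neighbouring-exon junctions (y axis, % of the gene's total in the library) at each intron of Amh (left) and Amhr2 (right), 1 line per library. WT 1118, in black, lies outside the range of the other 7 libraries at all 4 introns of Amh and at 7 of 10 introns of Amhr2.

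WT 1118 lay outside the range of the other 7 libraries at all 4 introns of *Amh* and at 7 of the 10 introns of *Amhr2*, for example with 30.4% of the *Amhr2* junction reads on intron 9 against 16.5 to 21.8% elsewhere and 2.56% on intron 5 against 6.01 to 7.87%. The depth over the exons moved with it. In the full-length *Amh* transcript exon 1 had 0.533 times the mean exon depth in WT 1118 against 0.795 to 0.951 times in the other libraries, and exon 4 had 1.62 times against 1.07 to 1.19. Whether this shift reached the counts of both genes was not tested. Without WT 1118 the log2 fold change was -0.26 for *Amh* (unadjusted p = 0.0519) and 0.092 for *Amhr2* (unadjusted p = 0.421, edgeR quasi-likelihood test). With all 8 libraries these were -0.21 and 0.14. The ratio of *Amh* to *Amhr2* without WT 1118 differed between the groups by -0.35 on the log2 scale.

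For *Amhr2*, 9378 reads fell on its 10 annotated introns between neighbouring exons, 99.7% of the reads spliced within the gene. A join of exon 5 to exon 7, which leaves out the 231 bases of exon 6 (chr15:102447231-102447461), was seen in 4 reads of WT 1120 and 3 reads of GOAT KO 1139 only. It is shown beside the regular join, with the end of exon 5 in lower case and the start of the next exon in capitals.
Amhr2 exon 5 and exon 6: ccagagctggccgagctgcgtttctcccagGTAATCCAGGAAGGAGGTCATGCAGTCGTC
Amhr2 exon 5 and exon 7: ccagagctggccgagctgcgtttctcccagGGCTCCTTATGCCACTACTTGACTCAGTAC
The form made up 4.04% (exact 95% interval 1.11 to 10.02%) of 99 reads leaving exon 5 for either exon in WT 1120 and 3.61% (0.752 to 10.2%) of 83 in GOAT KO 1139. The other 6 libraries together gave 0 of 453 reads, which allows a share of up to 0.662% by the limit of 3 counts in place of 0 and 0.811% by the exact 95% interval, both covering counting error only. Taken singly, these 6 libraries allow shares of up to 2.61 to 13.04% by the limit of 3 counts, and no difference between libraries was tested. WT 1120 and GOAT KO 1139 are the libraries left out in the alternative with 6.

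Reads and assembled transcripts reached before the annotated start of *Amhr2* in 2 libraries, in counts too few to compare the groups. In GOAT KO 1141, which had the highest *Amhr2* count, 3 reads joined a point before the annotated start to base 38 of exon 1, leaving out chr15:102445139-102445403 in 2 reads and chr15:102445235-102445403 in 1 read. No other library had a read on either junction. StringTie listed 3 further transcripts in this library, which began 254 or 152 bases before the annotated start and had 11.4, 10.2 and 6.88 FPKM beside 62.5 for the full-length transcript. In GOAT KO 1139 it listed 1 further transcript, which began 34 bases before the annotated start without an upstream junction and had 7.08 FPKM. With every assembled transcript added, *Amhr2* reached 94.2 FPKM in GOAT KO 1141 and between 60.9 and 86.3 in the other libraries. Both junctions leave from within the 250 bases before the start, printed here from RefSeq (GRCm38.p6, chr15:102445117-102445366, plus strand) with the letters AAGGTC in capitals, the core of the sites to which the nuclear receptor NR5A1 binds.
Amhr2 upstream: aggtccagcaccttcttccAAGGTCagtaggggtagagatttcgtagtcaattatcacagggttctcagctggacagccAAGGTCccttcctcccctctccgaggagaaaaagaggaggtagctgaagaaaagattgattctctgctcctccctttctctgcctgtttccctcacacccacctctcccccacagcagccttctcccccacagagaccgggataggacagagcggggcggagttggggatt
The letters AAGGTC occurred at 231 and 171 bases before the start, both on the plus strand. On either strand they occurred in 10.6% of 32851 windows of the same 250 bases before RefSeq starts, and at least 2 times in 0.673% of them. The junction with 2 reads begins inside the first of them, its last upstream base being 229 before the start. A match is a description of the letters and not a site.

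A list of 32 genes was fixed around AMH. It held the shared type I receptors with type II receptors of related ligands, the SMADs and their targets. It also held the proteases that cut AMH, the factors on its promoter and the oocyte signals to its source cells. All 32 genes were tested. None was called with all 8 libraries, against 1.67% of all genes, and 2 had an unadjusted p under 0.05 in edgeR (*Pcsk5* and *Sox9*), 2 in limma-voom and 1 in DESeq2, beside 4.62% of all genes in edgeR. Their median log2 fold change was -0.04, beside 0.00 over all tested genes, and 12 of the 32 were on the higher side in GOAT KO.

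The type I receptors that AMH shares with the bone morphogenetic proteins were listed with type II receptors of these proteins and of activins. Of the 6, *Bmpr2*, a type II receptor, had the highest level, at 880 CPM in WT against 825 CPM in GOAT KO. The type I receptors *Bmpr1b* and *Bmpr1a* had 329 and 229 CPM in WT against 327 and 222 CPM in the other group. *Acvr1*, another type I receptor through which AMH signals, was scarcer at 30.7 and 33.4 CPM. The 6 genes of this group, with the activin receptors *Acvr2a* and *Acvr2b*, had log2 fold changes between -0.09 and 0.12 and none passed.

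Of the SMADs, the receptor-activated *Smad1*, *Smad5* and *Smad9* and their partner *Smad4* had log2 fold changes between -0.07 and 0.06, and the inhibitory *Smad6* and *Smad7* had -0.22 ± 0.13 and -0.05 ± 0.11 (SE). The *Id* genes, which SMAD1 and SMAD5 switch on, did not pass either. *Id3*, the most abundant of them per kilobase at 84.6 RPKM, had 149 CPM in WT against 154 CPM in GOAT KO, *Id2* had 63.7 and 57.7 CPM, *Id1* 23.6 and 22.5 CPM and *Id4* 4.37 and 4.04 CPM.

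AMH is cut into its active form by proprotein convertases. Among these *Pcsk5* had 120 ± 5.16 CPM in WT against 134 ± 9.02 CPM in GOAT KO (SD, n = 4 each), with WT between 116 and 127 CPM and GOAT KO between 124 and 144 CPM. Its log2 fold change of 0.16 ± 0.06 had an unadjusted p of 0.0253 and an adjusted p of 0.983 (edgeR quasi-likelihood test). *Pcsk6* had 116 and 132 CPM (log2 fold change 0.19 ± 0.09) and *Furin* 124 and 116 CPM (log2 fold change -0.10 ± 0.06), and neither passed.

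The factors known to act on the *Amh* promoter were led by *Nr5a2* (891 CPM in WT, 977 CPM in GOAT KO), *Gata4* (269 and 259 CPM) and *Nr5a1* (227 and 213 CPM). *Sox9*, which switches on *Amh* in the fetal testis and is scarce in the ovary, had 4.26 ± 0.733 CPM in WT against 3.15 ± 0.753 CPM in GOAT KO, from 45 to 84 counts per library. Its log2 fold change was -0.43 ± 0.20 (adjusted p = 0.983) with all 8 libraries and -0.66 ± 0.20 (adjusted p = 0.406, edgeR quasi-likelihood test) with 6, where it was the only gene of the 32 that was called. *Wt1*, a zinc finger factor of granulosa cells, ranged from 124 to 222 CPM in WT and from 146 to 162 CPM in the other group, and the log2 fold change was -0.21 with all 8 libraries, -0.33 with 6 (adjusted p = 0.373, edgeR) and -0.074 without WT 1118. *Sox8*, *Gata6*, *Foxl2* and *Nr0b1* lay between -0.17 and 0.21.

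Oocytes act back on the granulosa cells that make AMH. Their growth factors *Gdf9* (305 CPM in WT, 310 CPM in GOAT KO) and *Bmp15* (152 CPM in both) had log2 fold changes of 0.03 and 0.00, *Bmp6* had -0.11 ± 0.11, and *Fgf8*, with at most 24 counts in a library, had -0.40 ± 0.27 and, without GOAT KO 1146, -0.64, where it was called.

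**Figure D5:**
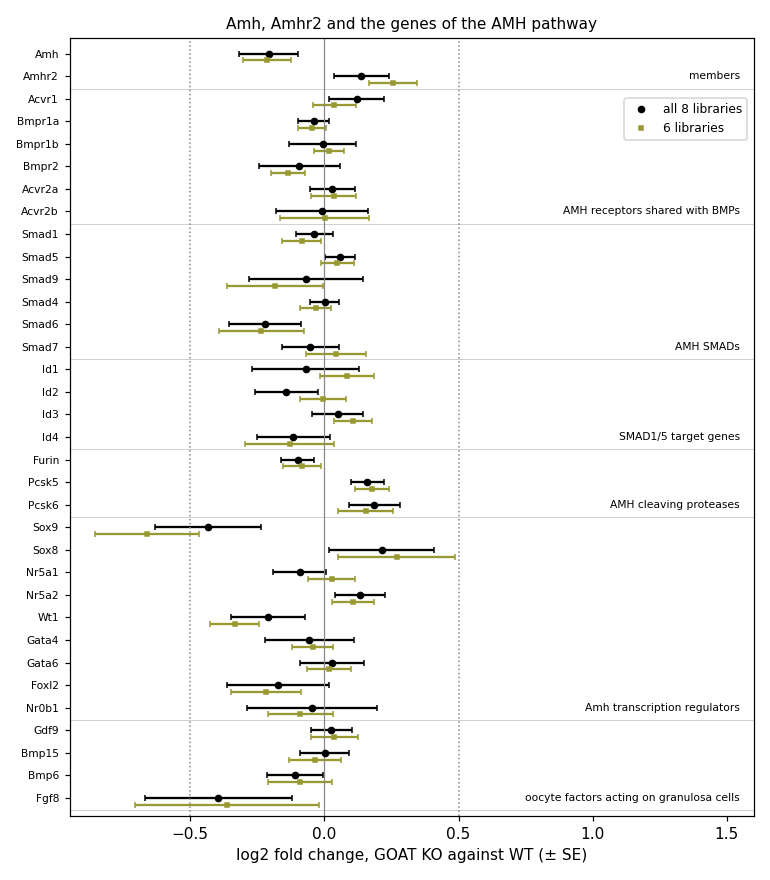
Log2 fold change of GOAT KO against WT (x axis, ± SE) for Amh, Amhr2 and the 32 genes of the pathway lists (y axis), with all 8 libraries (black circles) and with 6 (olive squares), dotted lines marking an absolute value of 0.5. Only Sox9 with 6 libraries lies beyond 0.5 in the figure.

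The listed markers of the granulosa cells that make both proteins lay mostly, but not all, on the other side from *Amh*. Of 9 markers of growing follicles, 8 were on the higher side in GOAT KO, with a median log2 fold change of 0.14 over the 9. The other, *Foxl2*, had -0.17 ± 0.19, and *Wt1*, a granulosa factor outside these 9, had -0.21. Of the 9, 3 had an unadjusted p under 0.05 on the higher side, against 2.49% of all genes for that direction. These were *Fst* (follistatin, 0.36 ± 0.13), *Fshr* (the FSH receptor, 0.47 ± 0.16) and *Hsd17b1* (an enzyme of estradiol synthesis, 0.31 ± 0.12), each with an adjusted p of 0.983 (edgeR quasi-likelihood test), and none was called. With 6 libraries 5 of the 9 had an unadjusted p under 0.05, against 9.46% of all genes, and 2 were called, *Fshr* (0.68) and *Inhbb* (an inhibin and activin subunit, 0.57), against 2.39%. The summed level of the 9 was 8326, 9780, 10432 and 9313 CPM in the WT libraries and 10751, 10029, 10691 and 10415 CPM in the GOAT KO libraries. Of 6 markers of antral follicles, whose granulosa cells make less AMH as the follicle enlarges, 1 was called, against 1.67% of all genes, *Inhba* (an activin subunit, 98.4 CPM in WT against 190 CPM in GOAT KO, log2 fold change 0.95). With 6 libraries 3 of them were called, *Inhba* (1.36), *Cyp19a1* (aromatase, 1.39, but 0.22 ± 0.77 with all 8) and *Nppc* (C-type natriuretic peptide, 0.53). Of 6 markers of oocytes in small follicles 1 was called, *Sohlh1* (0.87, and 1.08 with 6 libraries), and of 8 markers of growing oocytes none with either set. The 4 tested theca markers were all on the higher side (median 0.48), and 3 of 4 with 6 libraries, where *Star*, a cholesterol carrier, had a log2 fold change of -0.10 against 1.89 with all 8. On the higher side were also 5 of 6 stroma markers (median 0.09), of which *Col1a1* (0.36) and *Col1a2* (0.28), collagen genes, had an unadjusted p under 0.05. Of 7 surface epithelium markers 2 were on the higher side (median -0.09) and with 6 libraries 0, and of 5 leukocyte markers 1 (median -0.25), with *Krt7*, a keratin, and *Adgre1*, a macrophage marker, at an unadjusted p under 0.05 on the lower side (-0.35 and -0.36). Of 4 endothelium markers 1 was on the higher side (median -0.09), and with 6 libraries 0. None of these lists, from theca to endothelium, had a called gene with all 8 libraries by edgeR. Of 5 adipose markers 4 were called, *Adipoq*, *Plin1*, *Cfd* and *Car3*, and with 6 libraries only *Plin1* (0.78). The part of these cells in the levels of *Amh* and *Amhr2* was not tested.

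The genes next to the members were compared in the same fit. *Sf3a2*, a splicing factor gene on the same strand just before *Amh*, had a log2 fold change of -0.22 ± 0.12 (adjusted p = 0.983, edgeR quasi-likelihood test), near that of *Amh*. *Plekhj1* beyond it had -0.17, and on the other side *Jsrp1* had -0.25 and *Oaz1* 0.11. Around *Amhr2*, *Aaas* had 0.01, *Sp1* -0.06, *Prr13* -0.09 and *Pcbp2* -0.01, against 0.14 for the receptor, and none of these neighbours passed.

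Tested genes whose log2 CPM followed *Amh* closely over the 8 libraries included *Irx5* (Pearson's r = 0.955), *Dazl* (0.946), *Fam110a* (0.939) and *Abcb10* (0.939). Those that followed *Amhr2* were *Snrnp25* (0.979), *Guk1* (0.975), *Hps6* (0.968), *A530040E14Rik* (0.968) and *E430024P14Rik* (0.958). These are among the highest of 16599 other genes over only 8 libraries and describe likeness alone.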

How the data were processed

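Total RNA (RIN 10) of 1 ovary per mouse was sequenced by the authors as 50 bp single reads on an Illumina HiSeq, aligned to mm10 with TopHat2 2.0.14 and assembled with StringTie 1.0.4 guided by GENCODE M6. The deposited gene values are raw counts per symbol, and the deposited junction values are counts of reads across each junction. Depth and FPKM come from the attributes of the deposited StringTie transcripts. The counting tool and its use of strand are not given in the sources used here, so reads of overlapping genes may be shared. The total of 16147216 to 19481798 counts per library left between 3098 and 8258 counts on each member.

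Here, edgeR 4.0.16 in R 4.3.3 was run on all genes (TMM, filterByExpr with 10 counts in a library of median size and 15 in all, quasi-likelihood test, Benjamini-Hochberg adjustment over all genes tested). As in the study, a gene was called where its log2 fold change was beyond 0.5 in either direction and its unadjusted p was under 0.05. Single values were compared by exact two-sided permutation of the libraries (scipy 1.17.1), which cannot go below 0.0286 with 4 against 4. RPKM used the union of exons in GENCODE M21 (GRCm38). Introns were compared over all genes where each library held at least 500 junction reads on the gene and a mean of 50 on the intron. No 2 libraries of a group agreed within sampling noise (chi-square per gene 3.96 to 25.0 over 12 pairs). The fit was tested on simulated data before use.

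Genes named are both members, *Mboat4*, the pathway list, markers that were called or place the tissue, the nearest 2 tested genes on each side, and the 5 genes most alike each member, of which 1 is not reported here. The named rule leaves out *Fst*, *Fshr*, *Hsd17b1*, *Inhbb*, *Cyp19a1*, *Nppc*, *Col1a1*, *Col1a2*, *Krt7*, *Adgre1* and *Star*, which were named after their values were seen. The members and lists were chosen with earlier results of these data known. Alternatives were 6 libraries, each library left out, RLE size factors, no filter, DESeq2 1.42.0 and limma-voom 3.58.1. The GC correction, the other measures of the ratio, the comparison of introns and the correlation within groups were added after the data were seen. The deposited percentages of mapped reads were not used.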

Additional observations from a re-analysis of the deposited data

Results flagged for a closer look

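WT 1118 was marked as far from the other WT libraries, in relation to the spread of its group, in 5 values, all of them about splice junctions. Its share of *Amh* reads on the acceptor 24 bases before exon 4 was 15.5%, against 3.57 to 5.26% in the other WT libraries. Its share of *Amh* junction reads on intron 3 was 9.10%, against 15.8 to 16.4%. In *Amhr2*, its share was 13.2% on intron 2 (7.38 to 7.96% in the others), 2.56% on intron 5 (7.12 to 7.59%) and 30.4% on intron 9 (18.8 to 19.7%). Chance alone marks about 1 in 20 groups, and 48 groups of 4 libraries were looked at. The shares of a gene's introns depend on each other, so the 5 values are not separate events. No gene count, CPM or FPKM of either member was marked.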

How the results depend on the processing

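*Amh* stayed lower and *Amhr2* higher in GOAT KO under all alternatives, with log2 fold changes from -0.29 to -0.14 and from 0.077 to 0.26. Neither passed an absolute value of 0.5. The unadjusted p of *Amh* went under 0.05 with 6 libraries (-0.21) and without the filter on low counts (-0.22). With the GC correction it did not, at -0.16 with all 8 libraries (unadjusted p = 0.102) and -0.17 with 6 (unadjusted p = 0.0734, edgeR quasi-likelihood test). The unadjusted p of *Amhr2* went under 0.05 with 6 libraries, without (0.26) and with the GC correction (0.25). Leaving out each library gave -0.29 to -0.14 for *Amh* and 0.077 to 0.23 for *Amhr2*. The log2 ratio of *Amh* to *Amhr2* was -0.46 with 6 libraries (exact permutation p = 0.1) and -0.31 with the GC correction (exact permutation p = 0.0571), and leaving out each library gave -0.44 to -0.27, each with the smallest p that 3 against 4 allows (exact permutation p = 0.0571), so the test could not pass there. The spliced reads did not pass per TMM-scaled gene count, and with fewer libraries the exact test could not have passed, with differences of -105 to -60.4 for *Amh* and 13.9 to 57.1 for *Amhr2* in reads scaled to the junction reads (junction CPM) without each library in turn. The correlation of both genes turned negative with 6 libraries (-0.10), without the 2 libraries farthest from the median (-0.032) and without WT 1120 (-0.053), and ranged to 0.54 without GOAT KO 1141. Of the pathway genes 1 was called with 6 libraries, with or without the GC correction, and 0 to 1 when a library was left out. Over all genes, 278 were called, 691 without the filter and 231 to 437 when a library was left out, the most without WT 1120. At an adjusted p under 0.05 there were 4 genes, 20 with 6 libraries, 18 with 6 libraries and the GC correction, 7 without the filter, 13 with DESeq2 and 3 to 14 when a library was left out, the most without GOAT KO 1139. Except where the alternative itself leaves fewer libraries or more genes, the cause was not tested. No paired analysis was possible because the groups share no replicate number. Depth does not limit the members, but it limits the rare junctions and *Mboat4*.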
